A study of Mus musculus with 76 samples.

Results

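The genes described here are the nuclear genes for subunits of respiratory complexes II, III, IV and V and for cytochrome c, taken by symbol from 2 tables of gene expression in mice. A gene was included when its symbol was Sdha, Sdhb, Sdhc, Sdhd, Cyc1 or Cycs, or began with Uqcr, Cox4, Cox5, Cox6, Cox7, Cox8 or Atp5, and did not end in the suffix -ps, which marks pseudogenes. This gave 48 genes among the 18964 rows of the white adipose tissue (WAT) table and 46 of the same genes among the 16775 rows of the liver table. A mean normalized count of at least 10 in the tissue was then required, which left 45 of the 12798 genes tested in WAT and 43 of the 11710 tested in liver, with 42 tested in both. In WAT they comprised 3 genes of complex II, 9 of complex III, 1 for cytochrome c, 16 of complex IV and 16 of complex V. Sdhd, Cox6a2 and Atp5g2 were not tested in WAT, and Cox6a2, Cox6b2 and Atp5g2 were not tested in liver, because their means lay under that minimum. Cox4i2 and Cox8b are not among the rows used for liver.

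These complexes sit in the inner mitochondrial membrane. Complex II, succinate dehydrogenase, passes electrons from succinate to ubiquinone, and complex III passes them on to cytochrome c. Complex IV (cytochrome c oxidase) hands them to oxygen, and complex V (ATP synthase) uses the proton gradient that complexes III and IV help to build. Complexes III, IV and V are mosaics that also hold subunits encoded in the mitochondrial genome, and several complex IV subunits exist as paralogues whose use differs between tissues, with Cox7a1, Cox8b and Cox6a2 typical of heart, skeletal muscle or brown fat. White adipocytes hold fewer mitochondria than hepatocytes or brown adipocytes, and the respiratory chain in them supports lipid synthesis, adipokine secretion and thermogenic conversion.

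The mice carried a T-to-C knock-in in the 3′ untranslated region of Fnip2, which encodes a partner of folliculin in the mTORC1 pathway, and Fnip2 C/C animals (C/C) were compared with Fnip2 T/T animals (T/T). The substitution was introduced by Cas9 into C57BL/6 embryos on a repair template that also removed the guide's PAM by a second base change, so C/C animals differ from T/T animals at both bases. All animals used were female with free access to food, and their ages are not given in the labels. Visceral WAT came from 4 C/C and 5 T/T mice and liver from 5 C/C and 5 T/T mice. Each library was 1 mouse, and 6 mice gave both tissues. RNA was read from the 3′ end of polyadenylated transcripts (QuantSeq), so that a read count stands for transcripts and is not divided by gene length.

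Read totals recovered from the tables lay between 4180209 and 6277644 per WAT library and between 5583041 and 7523200.0 per liver library. The tissue labels matched their markers, since all 9 adipocyte markers were read in WAT, with summed normalized counts of 72594 to 230421 in C/C and 110191 to 199680.0 in T/T, and all 8 hepatocyte markers were read in liver. Of the 9 adipocyte markers, 6 were lower in C/C by the test and 0 higher, against 17.0% and 15.1% of all genes tested. The overlap of their sums rested on the abundant Cfd, at 53287 to 179926 in C/C and 47107 to 114349 in T/T. The other 8, summed after these values were seen, came to 19307 to 57772 in C/C and 63084 to 86176 in T/T, without overlap. Among single genes, 13.8% of all tested had every C/C library below every T/T library. Of the 4 WAT libraries that stood apart, C/C mouse 593 held a summed count of 24829.5 for ovary genes against at most 149.7 elsewhere, and T/T mouse 609 held 4051 for skeletal muscle genes against at most 318. C/C mouse 638 and T/T mouse 658 held 14064 and 6039 for brown or beige adipocyte genes against 3136 to 3952 in the other 3 C/C and 1558 to 1981 in the other 4 T/T libraries. In those other libraries the sum was led by Kcnk3, at 2565 to 3618 in C/C and 954 to 1577 in T/T. Kcnk3 was the only gene of this list with all of those C/C values above those of T/T. Cidea, at 237 to 647 in C/C and 288 to 537 in T/T, overlapped. Ucp1 overlapped as well, at 5.42 to 48.7 and 24.3 to 70.6. Marker sums of some other cells in WAT also differed between the genotypes without overlap, as did 26.1% of all single genes tested. Erythroid genes summed to 2976 to 4225 in C/C and 10229 to 13657 in T/T, with all 4 markers read, although Hbb-bt by itself overlapped. Endothelial genes summed to 1076 to 2095 and 2122 to 3329.9, with all 3 read, and small nucleolar RNAs took 0.0276% to 0.154% and 0.00949% to 0.0196% of reads. Lymphocyte genes summed to 284 to 554 and 624 to 978, with 4 of 6 markers read. Hepatocyte genes summed to 207 to 659 and 833 to 2893, with 6 of 8 read. The other markers of these 2 lists were not among the rows used. The lymphocyte sum was led by Ighm, at 247 to 497 and 611 to 967. The hepatocyte sum was led by Cyp2e1, at 102 to 577.5 in C/C and 577.1 to 2741 in T/T, which overlapped narrowly. Alb, at 29.3 to 116 and 133 to 257, did not overlap. Apoa1 overlapped and was highest in C/C mouse 593, at 70.2 against at most 8.34 in T/T. Ahsg, Ttr and Serpina1a were read at 0 to 8.34. Sums of fibroblast, macrophage, mesothelial and pancreas markers overlapped. The RNA label numbers of the WAT libraries are all even in C/C and all odd in T/T, and what these numbers stand for is not given, so whatever they mark and the genotype cannot be told apart in WAT. In liver both genotypes hold even and odd numbers. The part of any of these in the differences that follow was not tested. In bulk tissue, fewer cells of a type and less RNA per cell cannot be told apart.

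In WAT, 23 of the 45 genes of complexes II to V and cytochrome c differed between genotypes (adjusted p under 0.05, limma), against 32.1% of all 12798 genes tested. Lower in C/C were 17 of the 45 (37.8%), against 17.0% of all genes, and higher were 6 (13.3%), against 15.1%. The lower genes were found in every complex and included 8 of the 16 ATP synthase genes and 5 of the 16 complex IV genes, and the higher genes were Cox7a2l, Cox6b2 and Cox4i2 of complex IV, Atp5e and Atp5k of complex V and Uqcrc1 of complex III. The median log2 fold change, taken as C/C minus T/T on the log2(normalized count + 1) scale, was -0.48 over the 45 genes and 0.02 over all genes tested. By complex it was -0.86 over 3 genes of complex II, 0.01 over 9 of complex III, -0.35 over 16 of complex IV and -0.77 over 16 of complex V. In 18 of the 45 genes every C/C library lay below every T/T library, as in 13.8% of all genes tested, and in 6 every C/C library lay above, as in 12.2% (24 in all, against 26.1%). The unadjusted limma p was under 0.05 in 31 genes, against 43.9% of all genes tested. Fitted to the recovered read counts, edgeR called 18 of the 45 genes lower and 4 higher, against 32.4% of all genes called, and DESeq2 called 20 lower and 8 higher, against 36.9%. The fold changes ran both ways within complexes III, IV and V, from -3.88 for Cox8a to 1.53 for Cox7a2l. Of the 23 genes past the threshold, 13 differed by over 2-fold, 11 of them lower and 2 higher. The matching share of all genes was not counted. The SD of the log2 fold changes was 1.03 over the 45 genes and 0.88 over all genes tested. Of the 17 lower genes, 15 also passed when each of the 9 libraries was left out in turn, as did 3 of the 6 higher ones.

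**Figure D1:**
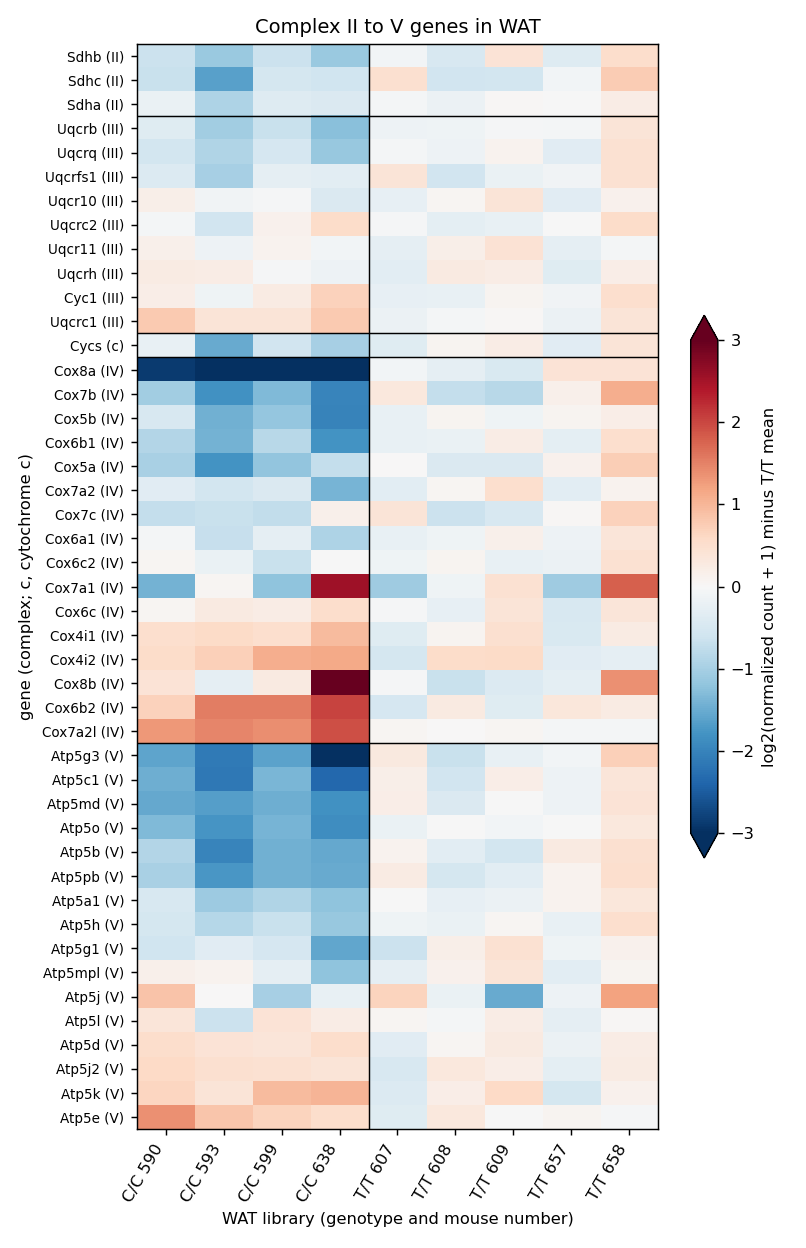
Heat map of log2(normalized count + 1) minus the T/T mean for the 45 tested genes (rows, by complex) in each WAT library (columns), with blue below and red above the T/T mean and colours capped at 3 on either side. Cox8a and most ATP synthase rows are blue in all 4 C/C libraries, Cox7a2l and Cox6b2 are red in all 4, and Cox7a1 and Cox8b are red mainly in C/C mouse 638 and T/T mouse 658.

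**Figure D2:**
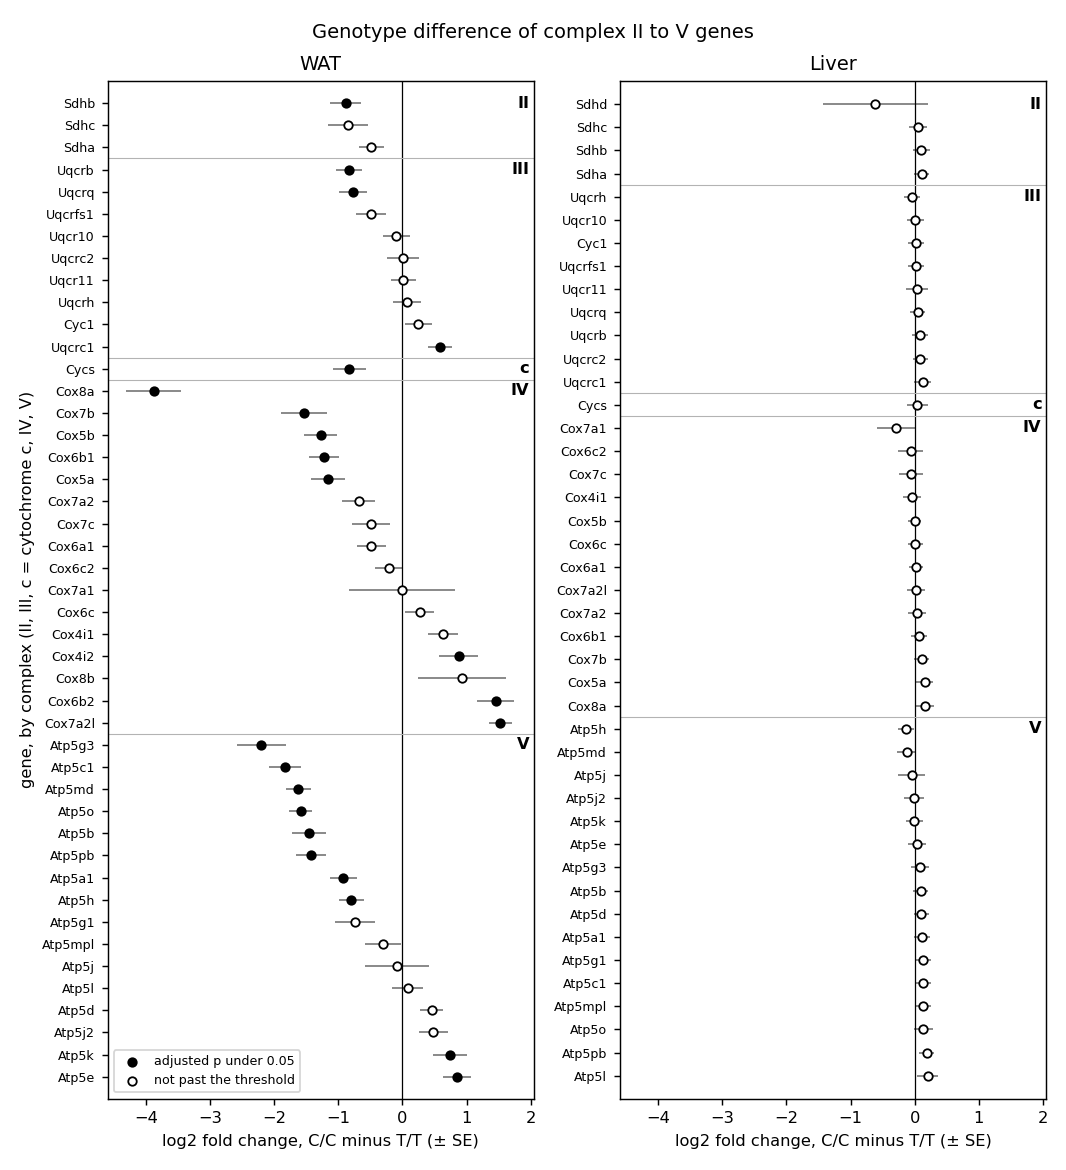
Log2 fold change of C/C against T/T with its standard error for each tested gene, by complex, in WAT (left) and liver (right), on 1 horizontal scale. Filled points passed a limma adjusted p under 0.05, which 23 genes did in WAT and 0 in liver.

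Complex II has 4 subunits and no mitochondrially encoded partner. Sdhb had normalized counts of 943, 684, 945 and 683 in C/C and 1407, 1070.2, 1977, 1128 and 2149 in T/T, and every C/C value lay below every T/T value. Sdhb, the iron-sulfur subunit, was lower in C/C with a log2 fold change of -0.89 (SE 0.24, limma adjusted p = 0.0146). Sdha had normalized counts of 1695, 1022, 1468 and 1423 in C/C and 1848, 1697, 1985, 1921 and 2243 in T/T, again without overlap. Sdha, the flavoprotein that oxidizes succinate, had a log2 fold change of -0.48 (SE 0.19, limma adjusted p = 0.0680), which missed the threshold. Sdhc, a membrane anchor that binds haem, missed it as well at -0.86 (SE 0.31, limma adjusted p = 0.0524). Sdhc spanned 76.7 to 168 in C/C and 161 to 406 in T/T, and the groups overlapped only because C/C mouse 599 lay just above T/T mice 608 and 609. Sdhd, the other anchor, was not tested in WAT, with 2 to 28 reads per library.

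In complex III, Uqcrb and Uqcrq were lower (22.2%, against 17.0% of all genes tested) and Uqcrc1 was higher (11.1%, against 15.1%). The other 6 genes did not pass. Uqcrb had normalized counts of 683, 427, 556 and 371 in C/C and 799, 807, 862, 846 and 1149.7 in T/T, without overlap. Uqcrb, which lies by the ubiquinone-binding pocket, was lower in C/C with a log2 fold change of -0.83 (SE 0.21, limma adjusted p = 0.00938). Its neighbour Uqcrq was lower as well, at -0.77 (SE 0.22, limma adjusted p = 0.0189), with C/C values of 1729 to 2678 under T/T values of 2979.8 to 5228. Without C/C mouse 638 the adjusted p of Uqcrq was 0.0591. Uqcrc1 had normalized counts of 1642, 1231, 1233 and 1642 in C/C and 835, 907, 963, 842 and 1244 in T/T, and the T/T mouse 658 exceeded C/C mice 593 and 599. Uqcrc1, a core subunit, was higher in C/C at 0.59 (SE 0.19, limma adjusted p = 0.0315), a call that was lost in 5 of the 9 fits with 1 library left out (without C/C 590, C/C 638, T/T 607, T/T 608 or T/T 657; adjusted p up to 0.0796). The catalytic subunits did not pass: Cyc1, which carries haem c1, had a log2 fold change of 0.25 (SE 0.21, limma adjusted p = 0.392), and Uqcrfs1, the Rieske iron-sulfur protein, of -0.49 (SE 0.24, limma adjusted p = 0.124). Uqcrc2, the partner of Uqcrc1 in the core, was at 0.01 (SE 0.24, limma adjusted p = 0.986), with T/T mouse 658 and C/C mouse 638 the highest of their groups at 1603 and 1586. The remaining 3 genes, Uqcr10, Uqcr11 and Uqcrh, lay between -0.09 and 0.07.

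Cytochrome c shuttles between complexes III and IV. Cycs had normalized counts of 539, 221, 421 and 315 in C/C and 493, 663, 741, 498 and 824 in T/T, with C/C mouse 590 above T/T mice 607 and 657. Cycs was lower in C/C by the test, at -0.83 (SE 0.26, limma adjusted p = 0.0270). This call was lost when C/C mouse 593, C/C mouse 638, T/T mouse 608 or T/T mouse 658 was left out (adjusted p up to 0.0714). With mice 593, 609, 638 and 658 left out together the log2 fold change was -0.20 (adjusted p = 0.584).

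The largest difference among the 45 genes was in complex IV. Cox8a had normalized counts of 71.7, 29.9, 59.6 and 11.7 in C/C and 507, 439.7, 386, 708 and 709 in T/T. All 4 C/C values lay far below the lowest T/T value, on 10 to 61 reads per C/C library and 346 to 935 per T/T library. Cox8a, the ubiquitous form of the smallest subunit, was 14.7-fold lower in C/C, a log2 fold change of -3.88 (SE 0.43, limma adjusted p = 0.000366). Without mice 593, 609, 638 and 658 the difference was 8.15-fold, from -3.03 on the log2 scale (adjusted p = 0.000246).

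A pair of subunits that sit at the matrix side of complex IV were lower too. Cox5a had normalized counts of 516, 294, 447 and 621 in C/C and 1015, 756, 750.2, 1107 and 1689 in T/T, without overlap. Cox5b had normalized counts of 1061, 550.3, 662 and 368 in C/C and 1283, 1576, 1351, 1567 and 1707 in T/T, also without overlap and with C/C mouse 590 nearest to T/T. Cox5a, which docks early on the catalytic core, had a log2 fold change of -1.16 (SE 0.27, limma adjusted p = 0.00695), and Cox5b, which binds zinc, of -1.28 (SE 0.26, limma adjusted p = 0.00350). Cox4i1, the regulatory subunit that joins the complex together with Cox5a, did not share that direction. Cox4i1 had normalized counts of 4554, 4784, 4584 and 6205 in C/C and 2511, 3406, 4542, 2346 and 3855 in T/T, so that every C/C library lay above the T/T range by a narrow margin. The Cox4i1 log2 fold change of 0.63 (SE 0.24, limma adjusted p = 0.0570) missed the threshold. Cox4i2, its paralogue that is induced by low oxygen, was higher in C/C at 0.88 (SE 0.31, limma adjusted p = 0.0446) on only 18 to 46 reads per library. This call was lost in 6 of 9 fits with 1 library left out (C/C 593, C/C 599, C/C 638, T/T 607, T/T 657 or T/T 658; adjusted p up to 0.108). Relative to Cox4i1 in the same library, Cox4i2 counts came to 0.749% to 1.09% in C/C and 0.491% to 1.00% in T/T, which overlapped.

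Subunit 6b, which faces cytochrome c, showed both paralogues past the threshold in opposite directions. Cox6b1 had normalized counts of 355, 243, 367 and 187 in C/C and 560.5, 561, 754, 531 and 922 in T/T. Cox6b2 had normalized counts of 63.5, 115, 115 and 160.5 in C/C and 27.1, 46.7, 30.1, 49.6 and 46.2 in T/T. Neither gene's groups overlapped. Cox6b1, the general form, had a log2 fold change of -1.22 (SE 0.24, limma adjusted p = 0.00307), and Cox6b2, the form known from testis, of 1.45 (SE 0.29, limma adjusted p = 0.00330). Cox6b2 counts were 17.9% to 85.6% of the Cox6b1 counts in C/C and 4.00% to 9.35% in T/T. With the 4 libraries that stood apart left out, the adjusted p was 0.0548 for Cox6b1 and 0.0649 for Cox6b2.

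Cox7a2l was the gene with the largest rise. Cox7a2l had normalized counts of 2062, 2312, 2194 and 3165 in C/C and 865, 842, 866, 793 and 793 in T/T, and every C/C library lay above the narrow T/T range. Cox7a2l, which helps to join complexes III and IV into a supercomplex, was 2.88-fold higher in C/C, a log2 fold change of 1.53 (SE 0.18, limma adjusted p = 0.000387). Its relative Cox7a2, the widely used subunit 7a, had counts of 2427, 2099, 2264 and 1163 in C/C and 2454, 3181, 4336, 2457 and 3295 in T/T, all C/C values lying under the T/T range. Its log2 fold change of -0.68 (SE 0.26, limma adjusted p = 0.0577) missed the threshold. Cox7a2l counts were 84.9% to 272% of the Cox7a2 counts in C/C libraries and at most 35.3% in T/T libraries. Cox7b, a further small subunit, was lower at -1.54 (SE 0.36, limma adjusted p = 0.00710), with 160.5 to 306 in C/C and 355 to 1343 in T/T. Cox6a1, the widely used form of subunit 6a, stood at -0.48 (SE 0.22, limma adjusted p = 0.107), and Cox6c, Cox6c2 and Cox7c lay between -0.49 and 0.27 without passing.

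The subunits of muscle and brown fat varied more between libraries of 1 genotype than between the genotypes. Cox7a1 had normalized counts of 17.6, 51.5, 20.6 and 288 in C/C and 23.0, 44.8, 68.1, 22.8 and 172 in T/T. Cox8b had normalized counts of 314, 196, 285 and 2343 in C/C and 232, 149.8, 179, 193 and 617 in T/T. C/C mouse 638 and T/T mouse 658, which were high for the brown or beige markers, were the highest of their groups for both genes, as they were for Ucp1, the uncoupling protein, at 476 and 1137 against at most 70.6 in the other 7. The genotype difference was -0.01 (SE 0.83, limma adjusted p = 0.995) for Cox7a1 and 0.93 (SE 0.69, limma adjusted p = 0.331) for Cox8b, with the largest standard errors of the 45 genes. Without mice 593, 609, 638 and 658 it was -0.56 for Cox7a1 (adjusted p = 0.382) and 0.66 for Cox8b (adjusted p = 0.0764). Cox8b counts came to at least 438% of the Cox8a counts in C/C and 27.3% to 87.1% in T/T and did not overlap, and the lower Cox8a counts of C/C enter this ratio. Cox6a2, the muscle form of subunit 6a, was read at 25.7 in T/T mouse 609, the library with skeletal muscle genes, at 3.28 in T/T mouse 607 and at 0 in the other 7 libraries.

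**Figure D3:**
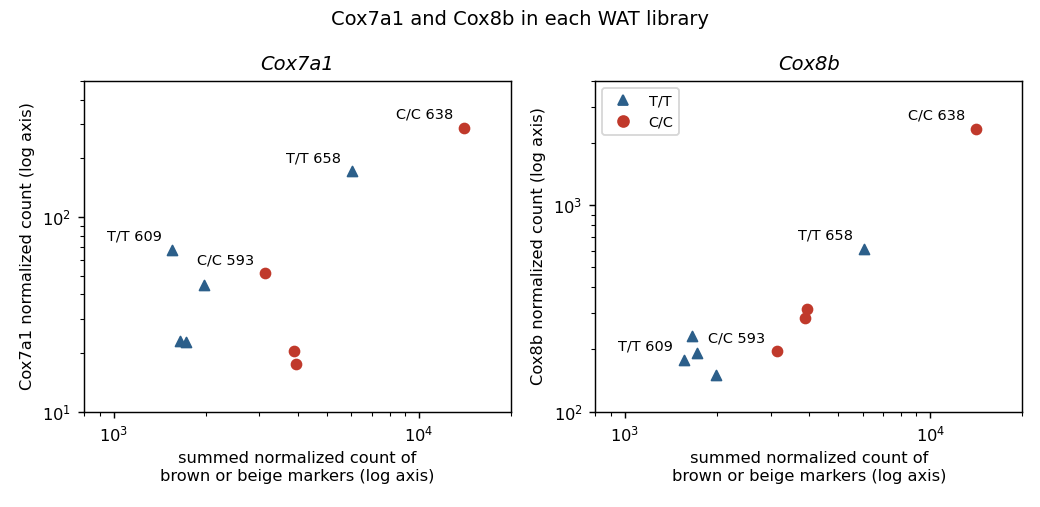
Normalized counts of Cox7a1 (left) and Cox8b (right) against the summed normalized counts of the brown or beige adipocyte markers in each of the 9 WAT libraries, all on log axes, with circles for C/C and triangles for T/T. C/C mouse 638 and T/T mouse 658 lie at the top right of both plots, and T/T mouse 609 is the third highest for Cox7a1 without a raised marker sum.

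In complex V, the subunits of the catalytic head and of the central and peripheral stalks that passed were mostly lower in C/C. Atp5b had normalized counts of 1579.5, 728, 1063 and 1000.3 in C/C and 3118, 2299.9, 1974, 3481 and 4052 in T/T, without overlap. Atp5a1 had normalized counts of 1886, 1241, 1411 and 1153 in C/C and 2605, 2219, 2351, 2869 and 3326 in T/T, without overlap. Atp5c1 had normalized counts of 294, 182, 312 and 157 in C/C and 922, 542, 925, 727 and 1044 in T/T, without overlap and with C/C mice 593 and 638 the lowest. Atp5b, the catalytic beta subunit, had a log2 fold change of -1.45 (SE 0.27, limma adjusted p = 0.00209). Atp5a1, the alpha subunit that alternates with it in the head, was at -0.92 (SE 0.21, limma adjusted p = 0.00547), and Atp5c1, the rotating gamma subunit, at -1.84 (SE 0.25, limma adjusted p = 0.000732). Atp5o, the peripheral stalk subunit known as OSCP, was read at 902, 665, 862 and 630.2 in C/C and at 1999.8, 2242, 2148, 2246 and 2834 in T/T, and the lowest T/T library lay far above the highest C/C library. Its log2 fold change of -1.59 (SE 0.19, limma adjusted p = 0.000403) went with a standard error among the 3 smallest of the 45 genes. Of the other stalk subunits, Atp5pb (subunit b) was at -1.42 (SE 0.24, limma adjusted p = 0.00137) and Atp5h (subunit d) at -0.80 (SE 0.20, limma adjusted p = 0.00956), both without overlap between the groups.

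The membrane part of complex V was mixed. Atp5md, known as DAPIT and located where ATP synthases pair, was 3.08-fold lower in C/C, from 263, 167, 224, 203 and 301 in T/T to 77.6, 71.1, 81.3 and 63.2 in C/C, a log2 fold change of -1.62 (SE 0.20, limma adjusted p = 0.000503). Of the 3 genes for the identical c subunit of the rotor ring, Atp5g3 carried most of the counts. Atp5g3 had normalized counts of 572, 389, 559 and 151 in C/C and 2082, 1070.2, 1459, 1604 and 2790.4 in T/T, without overlap, C/C mouse 638 being the lowest. The log2 fold change was -2.20 (SE 0.38, limma adjusted p = 0.00180) for Atp5g3 and -0.75 (SE 0.31, limma adjusted p = 0.0826) for Atp5g1, which was read at 15.2 to 36.5 in C/C and 29.5 to 64.7 in T/T. Atp5g2 was read at no more than 6.06 over both groups and was not tested. These paralogues, like other members with processed copies in the genome, may share reads with related loci.

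Against these, 2 small subunits were higher in C/C. Atp5e had normalized counts of 5810.0, 4019, 3612 and 3262 in C/C and 1768, 2830.1, 2227, 2377 and 2211 in T/T, without overlap, C/C mouse 590 being the highest. Atp5e, the epsilon subunit at the foot of the gamma subunit, had a log2 fold change of 0.85 (SE 0.22, limma adjusted p = 0.0114). Atp5k had normalized counts of 7620.0, 6343, 9402 and 9811 in C/C and 3659.9, 5568, 7401, 3409 and 5359 in T/T, with T/T mouse 609 above C/C mouse 593. Atp5k, subunit e of the dimer interface, had 0.74 (SE 0.26, limma adjusted p = 0.0449), and this call was lost in 7 of the 9 fits with 1 library left out (each but C/C 593 and T/T 609; adjusted p up to 0.112). The groups of Atp5d (subunit delta) and Atp5j2 (subunit f) did not overlap either, with C/C above T/T, but their log2 fold changes of 0.46 (SE 0.18, limma adjusted p = 0.0692) and 0.48 (SE 0.22, limma adjusted p = 0.112) missed the threshold. Atp5mpl, Atp5l and Atp5j lay between -0.30 and 0.08. Atpif1, which inhibits ATP hydrolysis by the complex and does not meet the symbol rule, was at 0.34 (SE 0.32, limma adjusted p = 0.440). C/C mouse 593 had an Atpif1 count of 1218, against 334 to 474 in the other C/C mice and 339 to 467 in T/T.

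The summed counts of complexes IV and V differed less between genotypes than many of their single genes did. The summed normalized counts of the complex II genes were 1788 to 2802 in C/C and 2933 to 4820.0 in T/T, without overlap. Those of complex III were 12773 to 15422 and 12363 to 18496, with overlap. Those of complex IV were 16883 to 21459 and 15249 to 22988, and those of complex V were 25125 to 31394 and 24516 to 33909.7, both with overlap. All member genes together took 1.31% ± 0.0235 (SD, n = 4) of the normalized counts of a C/C library and 1.46% ± 0.150 (SD, n = 5) of a T/T library. The ranges of 1.28% to 1.34% in C/C and 1.32% to 1.70% in T/T overlapped. The sums are led by abundant small subunits such as Atp5k, Atp5j2 and Cox6c.

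A fit without mice 593, 609, 638 and 658, chosen after the data were seen, kept 2 C/C and 3 T/T WAT libraries, in which 10 of the 45 genes were lower in C/C (22.2%, against 9.05% of all genes tested) and 5 higher (11.1%, against 7.08%). Of the 23 genes called with all libraries, 14 were called in this fit too, and Cox4i1 was added as a higher gene at 0.75 (limma adjusted p = 0.0476). Cox8a, Cox5a, Cox5b, Cox7b, Atp5b, Atp5c1, Atp5g3, Atp5md, Atp5o and Atp5pb were the 10 lower genes, and Cox7a2l, Atp5e, Atp5k and Uqcrc1 were the other 4 higher ones. No gene of complex II, no lower gene of complex III and not Cycs passed in this fit. The 9 genes no longer called had log2 fold changes of -0.34 for Sdhb (adjusted p = 0.295), -0.41 for Uqcrb (adjusted p = 0.193), -0.33 for Uqcrq (adjusted p = 0.295), -0.20 for Cycs (adjusted p = 0.584), -0.61 for Cox6b1 (adjusted p = 0.0548), 1.08 for Cox6b2 (adjusted p = 0.0649), 0.93 for Cox4i2 (adjusted p = 0.154), -0.64 for Atp5a1 (adjusted p = 0.0731) and -0.41 for Atp5h (adjusted p = 0.172), all in the direction they had with every library. The median log2 fold change over the 45 genes was -0.21.

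Short windows of the promoters are shown for 6 genes that passed in WAT, because the motif they share is the site of NRF1, a transcription factor known for nuclear respiratory genes, and because it occurs on both sides of the genotype difference. Each window is 30 bases of RefSeq sequence on GRCm38.p6, read 5′ to 3′ on the strand of the gene, with the motif in capitals.
Atp5c1, strand -, chr2:10080430-10080459: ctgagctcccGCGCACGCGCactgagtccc
Atp5g3, strand -, chr2:73911295-73911324: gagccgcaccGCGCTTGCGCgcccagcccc
Atp5h, strand -, chr11:115420041-115420070: gaccccgacgGCGCAGGCGCcgcgcccgcc
Atp5o, strand -, chr16:91931602-91931631: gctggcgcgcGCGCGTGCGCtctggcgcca
Atp5k, strand -, chr5:108434430-108434459: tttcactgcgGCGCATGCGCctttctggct
Uqcrc1, strand +, chr9:108936643-108936672: cttccttacaGCGCTTGCGCctcagactcc
The motif was searched as GCGCA, any base and GCGC, on both strands, in the 250 bases before and 50 after each gene start, and none of the motifs searched contains another. Of the 48 member genes, 36 had such a promoter sequence, and 10 of them (27.8%) held the motif, against 5.19% of 27025 genes. The 10 comprised the 4 lower genes Atp5c1, Atp5g3, Atp5h and Atp5o among 14 lower genes with a promoter, the 2 higher genes Atp5k and Uqcrc1 among 5, Cox6a1 and Sdha among 15 that were tested without passing, and Atp5g2 and Sdhd, which were not tested. The motif CCGGAAG, bound by ETS factors such as GABP, was in 13 of the 36 (36.1%, against 9.93%), namely in Cox8a, Cox6b1, Sdhb, Atp5h and Atp5md of the 14 lower genes, Atp5e and Atp5k of the 5 higher, Atp5j, Atp5l, Cox6a1, Uqcr11 and Uqcrh of the 15 that did not pass, and Sdhd, which was not tested. The SP1 motif GGGCGG was in 14 (38.9%, against 38.2%), and the YY1 motif ATGGCGG and the motif TCAAGGTCA of oestrogen-related receptors were in 2 genes each, against 4.69% and 0.466% of genes. A match is a match of letters and says nothing about binding.

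The transcripts of these genes are short. The 42 of the 45 genes with an annotated principal transcript had a median length of 752 bases, against 3099 over 11322 genes tested. Across the 42 genes, Spearman's rho of the WAT log2 fold change was -0.27 with transcript length and 0.35 with GC content, given as a description since the genes share the libraries they were read in. Over all genes the same values were 0.14 and 0.02. The 15 lower genes with a transcript had a median GC content of 50.2% and the 6 higher genes of 55.2%, within ranges of 40.8% to 58.5% and 49.9% to 57.5%.

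In liver, 0 of the 43 genes tested passed an adjusted p under 0.05 by limma, edgeR or DESeq2, as did 0.0% of all 11710 genes tested, and the 3 tools gave 0 of the 43 genes an unadjusted p under 0.05. Of all genes tested, 1.97% had such a p by limma, 2.13% by edgeR and 1.92% by DESeq2. The log2 fold changes lay between -0.61 and 0.20 with a median of 0.04 (0.01 over all genes), and their standard errors between 0.11 and 0.82. No gene's groups were apart, against 0.248% of all genes tested. Cox8a, the most changed gene in WAT, had liver counts of 1434, 1624, 1464, 1906 and 1743 in C/C and 1111, 1789, 1439, 1809.6 and 1246 in T/T, and the ranges overlapped widely. Its log2 fold change in liver was 0.16 (SE 0.15, limma adjusted p = 1.00), and that of Cox7a2l was 0.02 (SE 0.14, limma adjusted p = 1.00). The 3 genes of lowest p were Atp5pb at 0.19 (SE 0.12, limma adjusted p = 1.00), Atp5l at 0.20 (SE 0.16, limma adjusted p = 1.00) and Cox5a at 0.16 (SE 0.13, limma adjusted p = 1.00), none separated by genotype. Sdhd, with 18.0 to 114 in C/C and 9.75 to 214 in T/T, was the most variable and gave the lowest estimate, -0.61 (SE 0.82, limma adjusted p = 1.00). Cox7a1 had mean counts of 25.9 ± 8.81 in C/C and 33.0 ± 12.0 in T/T (SD), which was 0.373% to 1.32% of the Cox7a2 count of the same library. Cox6a2, Cox6b2 and Atp5g2, which were not tested, were read at 0 to 2.20, 0 to 7.24 and 4.14 to 18.6, and Atpif1 was at -0.07 (SE 0.12, limma adjusted p = 1.00). Other estimates for the subunits of fixed role ran from -0.04 for Cox4i1 to 0.13 for Atp5c1 among Sdha, Sdhb, Sdhc, Cyc1, Cycs, Uqcrfs1, Uqcrc1, Uqcrc2, Cox4i1, Cox5b, Cox6a1, Cox6b1, Cox7a2, Atp5a1, Atp5b, Atp5c1, Atp5g1 and Atp5g3. Of the other genes called in WAT and tested in liver, Atp5h was at -0.13, Atp5md at -0.12 and Atp5o at 0.14, and Uqcrb, Uqcrq, Cox7b, Atp5e and Atp5k lay between -0.01 and 0.11. All member genes together took 1.26% ± 0.0646 (SD, n = 5) of the normalized counts in C/C and 1.23% ± 0.0446 (SD, n = 5) in T/T.

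**Figure D4:**
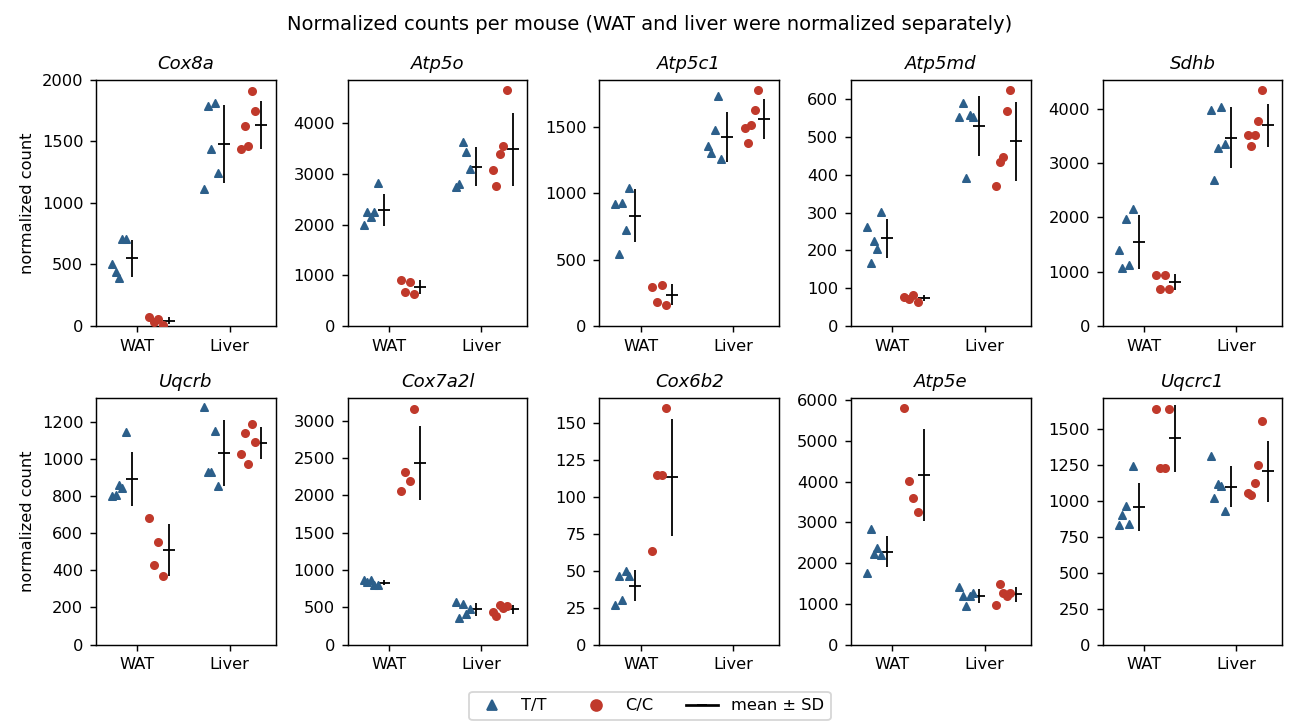
Normalized counts of 10 genes in each mouse, in WAT and liver, with triangles for T/T, circles for C/C and a bar for the mean ± SD of each group; all vertical axes start at 0, and Cox6b2 was not tested in liver. The WAT groups are apart in all but Uqcrc1 and those of liver overlap in each panel.

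Whether the genotype difference itself differed between the tissues was tested as the WAT difference minus the liver difference, over 10404 genes kept in both tables. It passed in 21 of the 42 genes, against 29.2% of all genes tested. Of these, 19 passed with a more negative value in WAT, against 17.7% of all genes tested, and 2 with a more positive one, Cox7a2l and Atp5e, against 11.5%. By edgeR 19 were more negative and 2 more positive, against 30.5% of all genes called, and by DESeq2 19 and 4, against 33.2%. The 3 genes of lowest p were Cox8a, at -4.04 (SE 0.48, limma adjusted p = 2.93e-05), Atp5o, at -1.73 (SE 0.23, adjusted p = 4.50e-05), and Atp5c1, at -1.97 (SE 0.28, adjusted p = 6.46e-05). By complex, 2 of 3 genes of complex II, 2 of 9 of complex III, Cycs, 6 of 13 of complex IV and 10 of 16 of complex V passed. Sdha and Atp5g1 passed here without passing in WAT alone, whereas Uqcrc1 and Atp5k did not pass here. The WAT libraries that stood apart enter this contrast too, and without them 12 genes passed with a more negative value in WAT (28.6%, against 12.8% of all genes in that fit) and 4 with a more positive one (9.52%, against 7.38%).

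Assembly factors of complexes II to V differed in both directions. Of 38 tested in WAT, 10 were lower (26.3%) and 5 higher (13.2%) in C/C, against 17.0% and 15.1% of all genes tested, with a median log2 fold change of -0.16. The lowest p values were those of Sdhaf4, which helps to join Sdha and Sdhb, at 4.16 ± 1.40 in C/C and 51.3 ± 25.2 in T/T (log2 fold change -3.21, SE 0.43, limma adjusted p = 0.000662; all means here ± SD of normalized counts over 4 C/C and 5 T/T mice), Atpaf2, a chaperone of the alpha subunit, at 13.6 ± 2.80 and 57.2 ± 15.7 (log2 fold change -1.96, SE 0.29, limma adjusted p = 0.000904), and Coa5 of complex IV, at 90.6 ± 15.8 and 259 ± 80.9 (log2 fold change -1.46, SE 0.24, limma adjusted p = 0.00140). The 5 higher ones were Sco2, which delivers copper to complex IV (log2 fold change 1.01, SE 0.27, limma adjusted p = 0.0140), Uqcc3 (log2 fold change 0.64, SE 0.19, limma adjusted p = 0.0213), Coa4 (log2 fold change 0.77, SE 0.25, limma adjusted p = 0.0344), Coa7 (log2 fold change 0.53, SE 0.18, limma adjusted p = 0.0393) and Bcs1l, which inserts the Rieske protein (log2 fold change 0.59, SE 0.20, limma adjusted p = 0.0403). With the 4 libraries that stood apart left out, 3 of the 38 were lower (7.89%, against 9.05% of all genes) and 1 higher (2.63%, against 7.08%).

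Of 10 transcriptional regulators of nuclear respiratory genes tested in WAT, 2 were lower (against 17.0% of all genes) and 0 higher (against 15.1%). Esrra, the oestrogen-related receptor alpha, was at 38.0 ± 9.63 in C/C and 66.8 ± 10.4 in T/T (log2 fold change -0.82, SE 0.23, limma adjusted p = 0.0182), and Gabpb1, the partner of Gabpa, at 8.11 ± 5.62 and 20.4 ± 2.20 (log2 fold change -1.41, SE 0.41, limma adjusted p = 0.0200). With the 4 libraries that stood apart left out, 1 was lower (against 9.05% of all genes) and 1 higher (against 7.08%). Gabpa itself stood at 0.87 (SE 0.32, limma adjusted p = 0.0532). The coactivator Ppargc1a was at -0.08 (SE 0.48, limma adjusted p = 0.916).

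Of 13 genes of mitochondrial mass and import, 9 were lower (69.2%, against 17.0% of all genes) and 0 higher (against 15.1%) in C/C WAT, with a median log2 fold change of -0.88 and all 13 estimates negative. Vdac2, a channel of the outer membrane, was at 249 ± 65.4 in C/C and 569 ± 57.7 in T/T (log2 fold change -1.22, SE 0.19, limma adjusted p = 0.00119), Hspd1, the matrix chaperonin, at 187 ± 63.1 and 377 ± 60.4 (log2 fold change -1.06, SE 0.23, limma adjusted p = 0.00480), and Slc25a5, an ADP/ATP carrier, at 68.7 ± 32.5 and 207 ± 78.9 (log2 fold change -1.58, SE 0.34, limma adjusted p = 0.00485). With the 4 libraries that stood apart left out, 6 of the 13 were lower (46.2%, against 9.05% of all genes).

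The mitochondrially encoded partners did not share one direction in WAT, where 2 of 6 were lower and 2 higher, against 17.0% and 15.1% of all genes. mt-Cytb, the cytochrome b of complex III, had normalized counts of 15782, 6699, 12475 and 9560.1 in C/C and 51621, 28241, 29023, 46867 and 91044 in T/T (log2 fold change -2.08, SE 0.37, limma adjusted p = 0.00183), and mt-Atp6 of complex V was lower as well (log2 fold change -1.32, SE 0.33, limma adjusted p = 0.00949). mt-Co3 of complex IV had 2727, 2184, 3553 and 7965 in C/C and 952, 1152, 1117, 1208 and 1428 in T/T (log2 fold change 1.63, SE 0.31, limma adjusted p = 0.00270). mt-Atp8, whose gene overlaps that of mt-Atp6 so that reads of the pair may be shared, was higher (log2 fold change 1.60, SE 0.36, limma adjusted p = 0.00551). The groups of these 4 transcripts did not overlap, as in 26.1% of all genes tested. Without the 4 libraries that stood apart, 2 were lower and 2 higher, against 9.05% and 7.08% of all genes.

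Among 39 nuclear complex I genes tested in WAT, 20 were lower (51.3%, against 17.0% of all genes) and 7 higher (17.9%, against 15.1%), with a median log2 fold change of -0.51. The 3 of lowest p were Ndufb8 (log2 fold change -2.14, SE 0.24, limma adjusted p = 0.000366), Ndufa8 (log2 fold change -3.54, SE 0.43, limma adjusted p = 0.000508) and Ndufc2 (log2 fold change -1.44, SE 0.19, limma adjusted p = 0.000656). The higher ones were Ndufs3, Ndufs6, Ndufa5, Ndufa2, Ndufc1, Ndufv1 and Ndufa13, with log2 fold changes from 0.59 for Ndufc1 to 1.02 for Ndufa5. Ndufa4, which that list holds by its symbol although its protein is now placed in complex IV, had counts of 47.0, 15.9, 31.4 and 29.3 in C/C and 287, 131, 67.0, 413 and 399 in T/T, a log2 fold change of -2.83 (SE 0.50, limma adjusted p = 0.00203). Without the 4 libraries that stood apart, 10 complex I genes were lower (25.6%, against 9.05% of all genes) and 7 higher (17.9%, against 7.08%). In liver 0 genes of any of these 5 lists passed, out of 39 assembly factors, 11 regulators, 12 mass and import genes, 6 mitochondrially encoded genes and 39 complex I genes tested.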

How the data were processed

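Libraries were made from total RNA (250 ng for liver, 500 ng for WAT) with the QuantSeq 3′ kit, which primes on the poly(A) tail and keeps the sense strand, and single reads were sequenced. Per the labels, the submitters' processing notes name FastQC 0.11.9, HISAT2, SAMtools 1.12, HTSeq and DESeq2 and the build GRCm39. The handling of reads that map to several loci is not given in the sources used here, and molecular identifiers are not mentioned. The deposited values are a signal, namely read counts per gene that the authors divided by a size factor per library, in separate tables for WAT and liver. Dividing each library by its smallest step gave whole reads, to within 1.8e-09 reads. In the WAT table, 1 column whose name matches no label was left out, as were 7 pseudogenes in WAT and 10 in liver.

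Genes with a mean of at least 10 in the tissue were fitted by limma 3.58.1 in R 4.3.3 (trend and robust) on log2(normalized count + 1) with genotype as the only term, and p-values were adjusted by Benjamini-Hochberg over all genes tested. The difference between tissues was a contrast over 4 groups of 19 libraries. A call is an adjusted p under 0.05, and tests are two-sided. Replicates are mice. For the 6 mice with both tissues, labels give the same number, and the correlation of their deviations in the 2 tissues was -0.20 to 0.16, so a replicate block by mouse was an alternative. Others were edgeR 4.0.16 and DESeq2 1.42.0 on the recovered counts, other pseudocounts, filters and scalings, library weights, a term for mouse numbers, and each library left out in turn. The fits without 4 WAT libraries, with a term for even RNA labels in liver, and with libraries left out or weights set by tissue in the contrast were added after the data were seen. The fits were tested on simulated data. The genes and lists were chosen with earlier results of these data known. Genes named with values are the 3 of lowest p in each complex, those called the other way, and a set of subunits of known role, and others were named after their values were seen. Transcript lengths and GC content came from GENCODE on GRCm38, and promoters from RefSeq on GRCm38.p6, which is not the build of the files.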

Additional observations from a re-analysis of the deposited data

Results flagged for a closer look

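Of 176 groups of 4 or 5 libraries examined for a value far from the rest of its own group, 8 held one, where about 1 in 20 groups does by chance. C/C mouse 638 was that library for 4 genes of WAT, with normalized counts of 6205 for Cox4i1 against 4554 to 4784, 288 for Cox7a1 against 17.6 to 51.5, 134 for Cox7c against 71.5 to 74.9 and 2343 for Cox8b against 196 to 314 in the other 3 C/C libraries. T/T mouse 658 was that library for 3 genes of WAT, with 617 for Cox8b against 149.8 to 232, 1149.7 for Uqcrb against 799 to 862 and 1603 for Uqcrc2 against 880.5 to 1078 in the other 4 T/T libraries. In liver, T/T mouse 657 stood below its group, with 390.2 for Atp5md against 551 to 589.7 in the other 4. Both WAT libraries are those with the high sums of brown or beige adipocyte markers, and the part of these in the values was not tested.

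The genotype difference was larger or smaller in WAT than in liver, by the interaction contrast of limma, in 21 genes. The 3 contrasts of the lowest p were -4.04 for Cox8a, -1.73 for Atp5o and -1.97 for Atp5c1, and those more positive in WAT were 1.51 for Cox7a2l and 0.81 for Atp5e, all on the log2 scale. The other 16 genes were more negative in WAT, at -2.29 for Atp5g3, -1.65 for Cox7b, -1.61 for Atp5pb, -1.55 for Atp5b, -1.50 for Atp5md, -1.32 for Cox5a, -1.29 for Cox6b1, -1.27 for Cox5b, -1.04 for Atp5a1, -0.99 for Sdhb, -0.92 for Uqcrb, -0.87 for Atp5g1, -0.87 for Cycs, -0.82 for Uqcrq, -0.67 for Atp5h and -0.60 for Sdha.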

How the results depend on the processing

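In WAT, 17 lower and 6 higher genes became 17 to 21 lower and 4 to 8 higher under the other pseudocounts, filters, scalings, library weights, mouse number term, edgeR (18 and 4) and DESeq2 (20 and 8). With 1 library left out the counts ran from 15 to 20 lower and from 3 to 8 higher, with 3 higher genes without C/C 638, T/T 607 or T/T 657. Without mice 593, 609, 638 and 658 together, 10 were lower and 5 higher, against 9.05% and 7.08% of all genes in that fit. Of the 23 calls, 10 of the 17 lower and 2 of the 6 higher were kept in every alternative. In liver, 0 genes were called in every fit, with 1 library left out included (0 to 0). In the interaction contrast, 19 genes were more negative and 2 more positive in WAT. With 1 library left out these were 15 to 21 and 2 to 4, with 4 more positive genes without WAT T/T 609. Without the 4 WAT libraries they were 12 and 4, against 12.8% and 7.38% of all genes in that fit. Library weights and DESeq2 each gave 4 more positive genes. The cause of these moves was not tested. For the fits with 1 library left out and the other settings, the shares of all genes called are not given here. In those fits, a change in these genes and a change in calling over all genes cannot be told apart. With the replicate block by mouse, 19 genes were more negative and 2 more positive, the same 21, and the block changed no call. No called value changed sign under any alternative. With 4 and 5 mice in WAT, standard errors had a median of 0.24 on the log2 scale against 0.13 in liver, Cox8a rested on as few as 10 reads in a library, and genes whose counts pass through related loci are uncertain.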
